A study of Mus musculus with 15 samples.

Results

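The apoptosis and survival genes described here are Bcl2, Bcl2l1, Bcl2l11, Mcl1, Bax, Fas, Fasl, Casp8, Cflar and Trp53inp1, 10 genes of 21887 protein-coding genes in the annotation. Their accessible regions were taken from 83743 regions that carried a peak in at least 2 of 15 libraries, each assigned to the nearest protein-coding gene within 100 kb. This gave 135 regions: 43 for Bcl2, 20 for Fasl, 14 for Bcl2l11, 12 for Bcl2l1, 10 each for Fas, Cflar and Trp53inp1, 8 for Mcl1, 7 for Casp8 and 1 for Bax. Of the 135, 82 (60.7%) lay inside the gene bounds, against 62.1% of all tested regions, and 48 (35.6%) had a peak in all 15 libraries, against 25.3%. Another 26 regions near these genes had a peak in 1 library and were not kept. The nearest gene need not be the gene a region acts on, and no expression was measured.

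Apoptosis of T cells runs along a mitochondrial route and a death receptor route. In the mitochondrial route the pro-survival proteins Bcl2, Bcl2l1 (Bcl-xL) and Mcl1 restrain the pore former Bax, and the BH3-only protein Bcl2l11 (Bim) opposes them. In the death receptor route the ligand Fasl engages the receptor Fas, which recruits and activates caspase-8, the product of Casp8, while Cflar (c-FLIP) holds that caspase in check. Trp53inp1 is a p53 target gene that promotes cell death. Activated T cells are known to pass from expansion to contraction partly through Bim and Fas.

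Open chromatin was profiled by ATAC-seq, in which a transposase cuts and tags accessible DNA, in cultured mouse CD4+ T cells. The 4 groups were IRF5+/+ (wild type) untreated cells with 4 libraries, IRF5+/+ cells activated for 72 h with 4, IRF5-/- (knockout) untreated cells with 3, numbered 1, 3 and 4, and IRF5-/- cells activated for 72 h with 4. Irf5 encodes an interferon regulatory factor, and the labels do not give the deleted part, the activating agent or the number of mice. The labels do not say if libraries within a group are from different animals, and p-values therefore reflect library-to-library spread, which may be technical.

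Each region was read in each library as the presence of a peak and as its highest pileup, the fragment coverage at the peak summit, per M fragments left after duplicate removal (M stands for mega). Depth was 20.5 M to 29.0 M fragments. Untreated knockout library 3 stood apart, with the fewest peaks (29994) and a median pileup of 1.80 per M over the 21176 regions found in all 15 libraries. The other untreated libraries had medians of 3.85 to 5.07 per M, and the activated ones 2.14 to 2.90 per M. All 10 T cell marker genes had a peak in every library. The region over the start of Irf5 had a peak in every library, which does not check the labels.

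The start regions are shown first. Sequences upstream of the start, 250 bases each, came from RefSeq on GRCm38.p6 and are printed 5′ to 3′ on the strand of the gene, for 2 genes that fell at the start (Bcl2l11 and Fasl) and 2 that did not pass the test (Fas and Mcl1). Capitals mark matches on either strand to AP-1, strict NF-kB, interferon response, ETS, FOXO, cyclic AMP response element (CRE), GC box, CCAAT box and E-box motifs.
Bcl2l11, chr2:128127325-128127574, plus strand: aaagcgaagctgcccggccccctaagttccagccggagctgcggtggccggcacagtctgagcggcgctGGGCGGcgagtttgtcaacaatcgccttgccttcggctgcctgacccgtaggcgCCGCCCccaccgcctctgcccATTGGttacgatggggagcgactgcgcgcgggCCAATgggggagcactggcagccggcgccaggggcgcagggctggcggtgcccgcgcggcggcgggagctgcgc
Fasl, chr1:161788496-161788745, minus strand: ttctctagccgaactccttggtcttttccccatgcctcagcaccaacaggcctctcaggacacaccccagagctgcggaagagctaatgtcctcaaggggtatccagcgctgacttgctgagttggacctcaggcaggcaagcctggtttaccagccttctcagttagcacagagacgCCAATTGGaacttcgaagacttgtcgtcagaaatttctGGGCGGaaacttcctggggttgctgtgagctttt
Fas, chr19:34290409-34290658, plus strand: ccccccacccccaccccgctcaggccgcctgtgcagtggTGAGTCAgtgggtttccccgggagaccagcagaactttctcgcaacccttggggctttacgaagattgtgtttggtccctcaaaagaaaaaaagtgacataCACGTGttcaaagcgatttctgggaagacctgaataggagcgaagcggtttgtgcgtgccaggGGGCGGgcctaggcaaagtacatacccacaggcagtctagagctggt
Mcl1, chr3:95658471-95658720, plus strand: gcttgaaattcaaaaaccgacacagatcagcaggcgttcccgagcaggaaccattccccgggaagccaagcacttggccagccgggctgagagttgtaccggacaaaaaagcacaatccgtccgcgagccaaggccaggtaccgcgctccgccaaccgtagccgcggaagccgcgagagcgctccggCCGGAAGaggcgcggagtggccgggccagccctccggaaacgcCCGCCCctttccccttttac
Of the 10 genes, 9 had such a window. In the 300 bases searched per gene (250 before to 50 after the start), a GC box, GGGCGG, was found in 6 of the 9 genes, against 35.7% of all 32851 promoter windows. The CCAAT box was found in 3 of 9 (37.4% of all windows) and the E-box CACGTG in 2 of 9 (7.15%). The AP-1 motif TGANTCA was found in Fas alone among the 9 (7.81% of all windows). The ETS core CCGGAAG was found in Mcl1 alone (8.86%). Neither the FOXO motif TGTTTAC nor the CRE was found in any of the 9 (3.65% and 1.79% of all windows). The strict NF-kB motif was found in Bcl2l1 alone (1.68% of all windows) and the interferon response motif in Cflar alone (3.44%). A looser NF-kB motif, left in lower case, was found in 8 of 9 and in 50.8% of all windows. In Fasl a pair of CCAAT matches, 1 on each strand, overlap. These matches describe the letters of the windows.

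From 0 h to 72 h the highest pileup in the region over the start fell beyond the typical region in both genotypes for 6 genes: Bcl2, Bcl2l11, Fasl, Casp8, Cflar and Trp53inp1. None rose. Pileup per M fell with activation over the 21176 regions found in all libraries, with a median change of -0.81 (log2) in wild type and -0.50 in knockout. These leave out every region called gained or lost by presence, and activated libraries had more peaks. Changes are given relative to the library median over these regions unless stated. A region was called at an adjusted p under 0.05 by limma, with Benjamini-Hochberg adjustment over all 21176 regions. Over 8592 regions that overlap a start, 37.4% were lower and 20.5% higher in wild type, and 36.6% lower and 21.4% higher in knockout. On the scale per M, 9 of the 10 starts were lower in wild type and 6 in knockout.

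The start of Bcl2, the founding pro-survival gene (chr1:106713653-106715084, GRCm38), read 6.96, 8.83, 10.7 and 11.3 per M in untreated wild type and 4.22, 5.19, 4.59 and 3.73 at 72 h. In knockout it read 8.26, 3.37 and 10.6 untreated, and 3.29, 3.63, 3.12 and 3.13 at 72 h. The groups did not overlap by time in wild type, and in knockout the low untreated value, that of library 3, lay inside the activated range. Relative to the median the start fell by 0.30 ± 0.095 (log2, SE; adjusted p = 0.00536) in wild type and by 0.55 ± 0.10 (adjusted p = 9.51e-06) in knockout, both by limma.

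The start of Bcl2l11 (chr2:128126918-128128108) read 7.14, 8.76, 8.98 and 11.1 per M in untreated wild type and 3.41, 4.14, 3.14 and 3.42 at 72 h. The knockout values were 8.44, 4.02 and 10.3 untreated and 3.03, 2.99, 2.95 and 3.27 at 72 h. Every untreated library was above every activated one of its genotype. The relative change was -0.57 ± 0.097 (adjusted p = 2.07e-06, limma) in wild type and -0.74 ± 0.11 (adjusted p = 4.90e-08) in knockout.

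The start of Fasl (chr1:161787871-161788838) showed the same order, with 6.92, 8.10, 8.45 and 8.95 per M untreated against 2.76, 3.05, 3.29 and 2.88 at 72 h in wild type. In knockout it read 7.63, 3.52 and 7.31 against 2.63, 2.70, 2.13 and 2.90. Untreated and activated libraries did not overlap in either genotype. The relative change was -0.66 ± 0.11 in wild type and -0.71 ± 0.11 in knockout (limma adjusted p = 6.14e-07 and 7.37e-07).

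The start of Trp53inp1 was taken as the boundary of the annotated gene, since no promoter window was used for it. This region (chr4:11155731-11157106) was the highest of the 10 in untreated wild type, at 11.9 ± 1.66 per M (SD, n = 4), and was 4.76 ± 0.597 at 72 h. Its relative change was -0.54 ± 0.088 in wild type and -0.58 ± 0.095 in knockout (limma adjusted p = 5.77e-07 and 7.15e-07). The start of Cflar changed by -0.34 ± 0.12 and -0.59 ± 0.13 (adjusted p = 0.0121 and 9.93e-05, limma), and that of Casp8 by -0.35 ± 0.13 and -0.35 ± 0.15 (adjusted p = 0.0201 and 0.0339). The Cflar summit lay 43 to 851 bp past the start in untreated and 1084 to 1130 bp in activated wild type. In knockout it lay at 832 to 851 and 1068 to 1178 bp, so heights at different places were compared. The Casp8 start is that of the promoter window, inside the gene bounds. The region over the outer boundary (chr1:58795093-58796233) changed by -0.03 ± 0.12 in wild type and 0.05 in knockout, and passed in neither. Some of the start calls rested on single libraries. In wild type, leaving out untreated library 1 gave -0.33 for Casp8 and -0.27 for Cflar, and leaving out activated library 2 gave -0.27 for both, none past the threshold. In knockout the Casp8 call was lost without untreated library 3 or 4, or without activated library 1, 2 or 3, at -0.31 to -0.33.

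The starts of Bcl2l1, Mcl1, Bax and Fas did not pass the test relative to the median in either genotype. Bcl2l1 changed by -0.02 ± 0.082 in wild type and -0.04 ± 0.088 in knockout. Its summit lay at -795 to -747 bp from the start in untreated and -678 to 21 bp in activated wild type. In knockout it lay at -750 to -726 and -727 to 75 bp, so heights at different places were compared here too. Mcl1 changed by 0.17 ± 0.11 and 0.02 ± 0.11, Bax by 0.21 ± 0.15 and 0.19 ± 0.16, and Fas by 0.11 ± 0.12 and 0.13 ± 0.13. Bax, with the lowest start of the 10, read 2.1 to 3.44 per M in untreated wild type and 1.56 to 2.25 at 72 h, so the ranges overlapped. The starts of Fas overlapped in knockout, where untreated libraries read 4.31, 2.18 and 5.99 per M and activated ones 2.76 to 3.31.

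**Figure D1:**
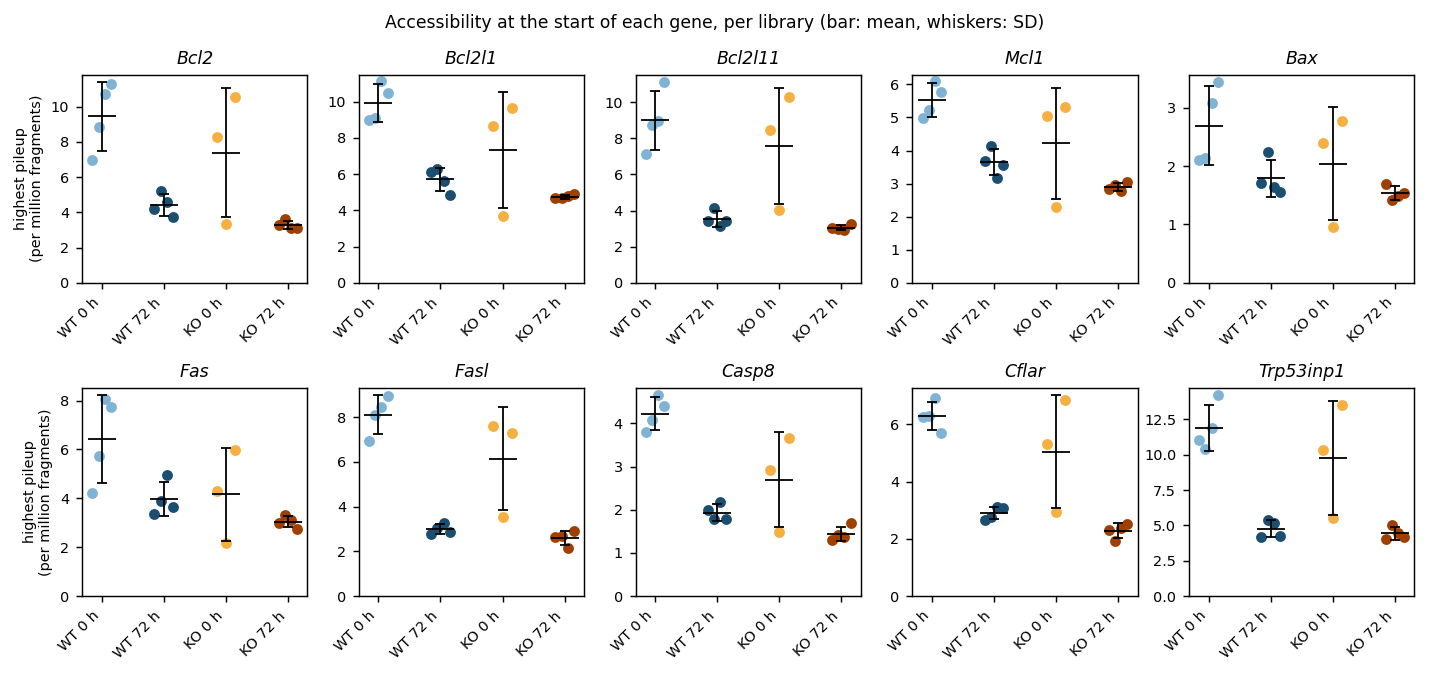
Highest pileup per M fragments at the region over the start of each gene, with 1 point per library, a bar for the mean and whiskers for the SD; each axis starts at 0. The 4 wild-type libraries at 72 h (WT 72 h) lie below all 4 untreated ones at the starts of Bcl2, Bcl2l11, Fasl, Casp8, Cflar and Trp53inp1, and also at those of Bcl2l1 and Mcl1, which did not pass relative to the median; untreated knockout (KO 0 h) library 3 is the lowest point of its group in every panel.

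Peak calls changed away from the starts as well. Of the 135 regions 17 (12.6%) were lost and 7 (5.19%) gained with activation, where lost means a peak in fewer activated libraries, by a two-sided exact conditional test with genotype as stratum and Benjamini-Hochberg adjustment over all 83743 regions. Among all tested regions 4.65% were lost and 18.4% gained. Losses touched 9 genes and gains 4 (Bcl2, Fas, Fasl and Casp8). Of the lost regions 7 had a peak in all 7 untreated and none of the 8 activated libraries, and 5 of the gained regions had the reverse, each at an exact p = 0.000408, the smallest this test can give (adjusted p = 0.00399). When each library was left out in turn, 10 of the 17 losses and 5 of the 7 gains held throughout. The losses that did not were 2 at Cflar and 1 each at Bcl2l1, Bcl2l11, Mcl1, Fas and Fasl, and the gains were 1 each at Bcl2 and Fas. Within wild type, 8 regions had a peak in every activated and no untreated library and 12 the reverse (14.3% and 3.35% of all tested regions); within knockout these were 6 and 9 (12.9% and 2.23%). Absence of a peak does not show that a region is closed. With the same number of peaks taken from every library, 21 of the 135 regions were lost and 6 gained. All 44850 regions then tested gave 14.1% (6335) lost and 14.8% (6630) gained. The 135 also count member regions with too few peaks to be tested in that setting, so these shares have unlike bases.

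The share of the 135 regions with a peak was 73.0 ± 6.78% (SD, n = 4) in untreated and 68.9 ± 2.1% in activated wild type, and 65.4 ± 7.85% (n = 3) and 59.4 ± 2.37% (n = 4) in knockout. All tested regions moved the other way: 51.8% untreated and 71.9% activated for wild-type cells, 43.8% and 64.8% for knockout cells. These shares were not tested. Activated libraries had more peaks (55519 to 69086) than untreated ones (29994 to 47790). With the same number of peaks taken from every library, the members' shares were 55.0% and 43.3% in wild type and 56.8% and 40.6% in knockout. At that setting all tested regions gave 35.4% at both times in wild type, and 34.4% untreated and 35.2% activated in knockout. The opposite move of all regions was thus not seen in wild type at equal peak numbers and was small in knockout.

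**Figure D2:**
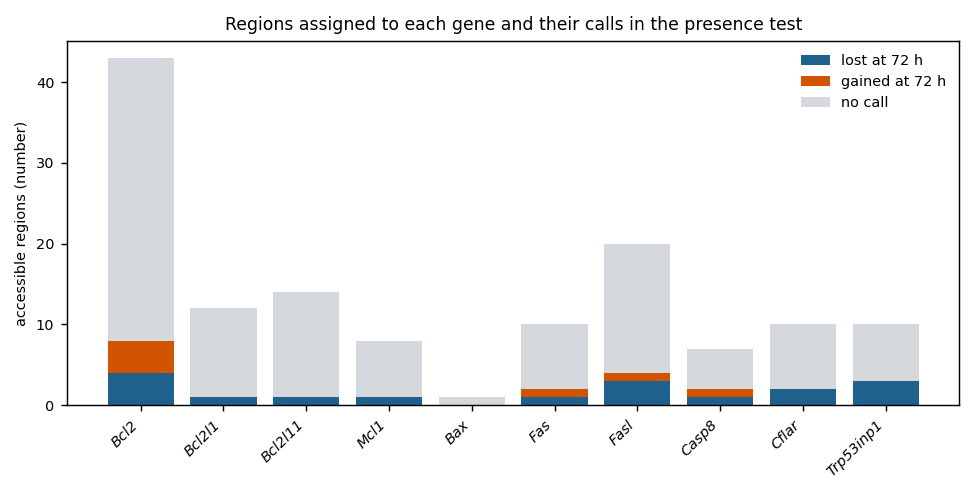
Number of accessible regions assigned to each gene, stacked by their call in the presence test over 83743 regions (lost at 72 h, gained at 72 h, or no call). Bcl2 has the most regions (43), with 4 lost and 4 gained, and Trp53inp1 has 3 lost of 10 and none gained.

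Bcl2 carried 43 regions over a gene of 176115 bp, 40 of them inside its bounds, and its changes went both ways. Of the 12 Bcl2 regions present in all libraries, 7 rose and 2 fell relative to the median in each genotype, beside 29.8% higher and 33.3% lower over all regions in wild type and 29.3% and 32.9% in knockout. The largest rise was 107 kb into the gene (chr1:106606706-106607577), where untreated wild-type libraries read 1.78, 2.24, 2.31 and 2.18 per M and activated ones 4.82, 5.73, 5.74 and 3.07. In knockout the values were 1.59, 0.497 and 1.61 untreated and 2.76, 3.59, 3.63 and 3.79 activated. All activated libraries lay above all untreated ones, and the change relative to the median was 1.93 ± 0.14 in wild type and 2.12 ± 0.15 in knockout (limma adjusted p = 1.23e-16 and 7.86e-17). The rise was also called on the scale per M, at 1.15 and 1.66.

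Further rises in Bcl2 lay 101 kb from the start (1.29 ± 0.12 in wild type and 1.58 ± 0.13 in knockout, chr1:106612266-106613649) and 144 kb from it (1.06 ± 0.14 and 1.25 ± 0.15, chr1:106569298-106570785). Besides the start, the region 26.1 kb from it fell (-0.47 ± 0.14 and -0.44 ± 0.15). Among peaks called in only some libraries, the gained and lost ones were interleaved along the gene body. The 3 lost regions with the highest merged score were chr1:106548819-106549580, chr1:106595266-106595588 and chr1:106577649-106578816, 165, 119 and 136 kb from the start. The 3 gained ones were chr1:106567551-106567802, chr1:106585163-106585809 and chr1:106558440-106559307, at 147, 129 and 155 kb. All 6 separated untreated from activated libraries completely. In the authors' merged lists, the gained chr1:106567551-106567802 had a peak in untreated wild type, at −log10 q of 19.1. The lost chr1:106548819-106549580 had one in activated knockout (3.26), and the lost chr1:106577649-106578816 one in activated wild type (2.59).

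**Figure D3:**
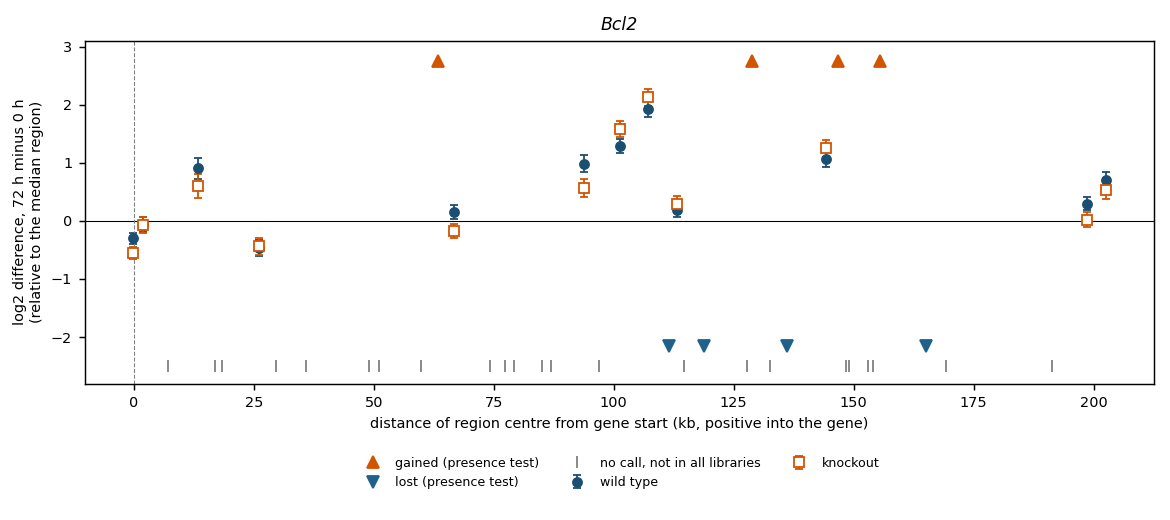
Change from 0 h to 72 h along Bcl2, by distance of each region from the gene start (kb, positive into the gene) and log2 difference relative to the median region, with SE bars, for regions in all libraries (filled circles wild type, open squares knockout). Triangles mark regions called gained or lost by peak presence and grey ticks regions with no call; the rises at 101 to 144 kb stand beside 4 lost and 3 gained regions between 111 and 165 kb.

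Bcl2l1 encodes the pro-survival protein Bcl-xL, and all 12 of its regions lay inside the gene. Of its 5 regions in all libraries, 4 rose relative to the median in wild type and 3 in knockout, and none fell. The largest, 27.3 kb from the start (chr2:152803001-152803813), read 1.07, 1.21, 1.66 and 1.78 per M in untreated wild type and 1.86, 1.96, 1.91 and 1.24 at 72 h, so the groups overlapped. It changed by 1.07 ± 0.18 relative to the median in wild type and 1.14 ± 0.19 in knockout (limma adjusted p = 1.24e-06 and 1.84e-06), while the wild-type change per M was 0.30 and did not pass. In knockout the groups did not overlap, at 0.727 to 1.09 per M untreated and 1.29 to 1.68 activated, and the change per M was 0.67 (adjusted p = 0.0488, limma). One Bcl2l1 region was lost by peak presence (chr2:152775142-152776125, in 7 of 7 untreated and 2 of 8 activated libraries, adjusted p = 0.0443 by the exact test). That call held in 2 of the 15 fits that left out 1 library. The region also had a peak in the authors' merged activated lists, at −log10 q of 18.2 in wild type and 13.6 in knockout.

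Mcl1, whose protein is short-lived and needed for T cell survival, had 4 regions in all libraries, of which 2 rose relative to the median in wild type and 1 in knockout. The region 10.4 kb past the start (chr3:95668654-95669492) changed by 0.65 ± 0.12 and 0.69 ± 0.13 (limma adjusted p = 1.22e-05 and 1.76e-05). Its values per M were 3.30 to 3.88 in untreated and 3.08 to 3.64 in activated wild-type libraries, ranges that overlapped. The region centred at -6.10 kb from the start (chr3:95652235-95653004) was lost, with a peak in 4 untreated wild-type and 1 untreated knockout library and no activated one (adjusted p = 0.0308, exact test, held in 2 of 15 fits without 1 library).

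Bcl2l11 showed the largest falls of the 48 regions present in all libraries. The region 25.6 kb from its start (chr2:128152428-128153969), inside the gene, read 10.4, 9.97, 10.9 and 9.50 per M in untreated wild type and 2.19, 2.1, 2.49 and 1.56 at 72 h. In knockout it read 9.04, 3.67 and 9.94 untreated and 1.34, 2.1, 1.58 and 1.5 at 72 h. No untreated library overlapped an activated one, library 3 included. The relative change was -1.53 ± 0.12 in wild type and -1.64 ± 0.13 in knockout (limma adjusted p = 1.25e-15 and 2.08e-15), and per M -2.31 and -2.11.

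A second region, 62.5 kb from the start and beyond the gene's end (chr2:128189442-128190703), changed by -1.39 ± 0.17 and -1.43 ± 0.19 (adjusted p = 1.21e-09 and 5.16e-09, limma). Its wild-type values fell from 2.81 to 4.21 per M in untreated to 0.726 to 0.892 in activated libraries. Relative to the median, not all Bcl2l11 regions fell. Those 32.2 and 123 kb from the start changed by 0.44 ± 0.16 and 0.44 ± 0.18 in wild type (adjusted p = 0.0130 and 0.0330, limma). They did not pass in knockout (0.06 ± 0.17 and 0.30 ± 0.20). The first wild-type call was lost without untreated library 4 (0.37) or activated library 3 (0.33), and the second without untreated library 4 (0.34) or activated library 1, 2 or 4 (0.37 to 0.45). Per M the wild-type changes of both regions were negative, at -0.34 and -0.33, and neither was called. A region 40.7 kb from the start (chr2:128168028-128168563) was lost by peak presence, found in 5 of 7 untreated and no activated library (adjusted p = 0.0443, exact test; it held in 2 of 15 fits without 1 library). Bax had its start region only.

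Fasl, the death ligand gene, lies beside a 275-kb interval without a protein-coding gene, toward Tnfsf18, and 16 of its 20 regions were on that side. Relative to the median, 2 of its 8 regions in all libraries rose and 4 fell in wild type, and 1 rose and 5 fell in knockout. The strongest falls were 21.8 kb (chr1:161765879-161767535) and 75.4 kb (chr1:161712466-161713738) from the start. The first read 12.8, 12.6, 16.3 and 13.9 per M in untreated wild type and 3.93, 3.81, 3.91 and 3.31 at 72 h. Its untreated knockout values were 11.6, 5.62 and 13.5, and its activated ones 3.03 to 3.27. The time groups did not overlap in either genotype, and the relative changes were -1.11 ± 0.086 and -1.16 ± 0.093 (limma adjusted p = 1.08e-15 and 3.94e-15).

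The region 75.4 kb away changed by -1.15 ± 0.15 in wild type and -1.22 ± 0.16 in knockout (adjusted p = 4.52e-09 and 8.80e-09, limma). Between the start and these regions, one at 13.4 kb (chr1:161774492-161775752) rose by 1.09 ± 0.17 and 0.90 ± 0.18 (adjusted p = 2.02e-07 and 2.92e-05, limma). Its wild-type values overlapped on the scale per M, at 1.52 to 2.91 untreated and 2.18 to 3.37 activated. By peak presence Fasl lost chr1:161706937-161707508 and chr1:161779110-161779693, each found in all untreated and no activated library, and chr1:161801444-161801633, found in 5 untreated and no activated library (adjusted p = 0.0443, exact test). It gained chr1:161693190-161694014, 94.9 kb from the start, in all 8 activated and no untreated library. In the authors' merged lists, the lost chr1:161706937-161707508 had a peak after activation, at −log10 q of 27.7 in wild type and 13.8 in knockout. The gained region had one in untreated wild type, at 6.95.

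**Figure D4:**
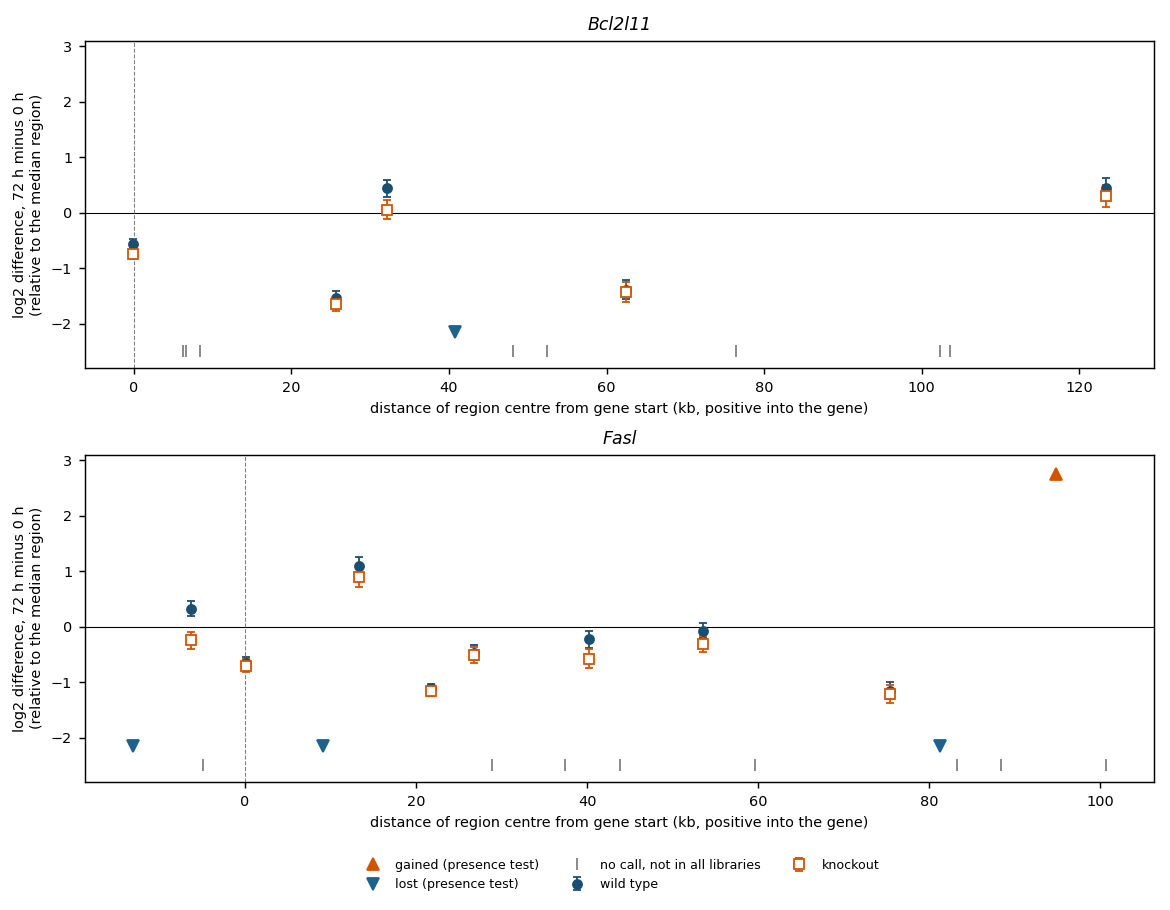
Change from 0 h to 72 h along Bcl2l11 and Fasl, by distance of each region from the gene start (kb, positive into the gene) and log2 difference relative to the median region with SE bars, drawn as for Bcl2. The falls of about the same size in both genotypes at 25.6 and 62.5 kb (Bcl2l11) and at 21.8 and 75.4 kb (Fasl) stand out, next to the rise at 13.4 kb in Fasl.

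Fas, the receptor, had 3 regions in all libraries. The region 8.58 kb from the start rose relative to the median in both genotypes (0.39 ± 0.11 and 0.40 ± 0.12, limma adjusted p = 0.00214 and 0.00353), and the one at 16.3 kb in wild type (0.53 ± 0.14, adjusted p = 0.000908), with 0.08 ± 0.15 in knockout. Per M the wild-type changes of both regions were negative, at -0.39 and -0.25, and neither was called. A region 109 kb from the start (chr19:34399402-34400159), 71.6 kb past the gene's end, was gained, with a peak in 4 activated wild-type and 2 activated knockout libraries and in no untreated one (adjusted p = 0.0308, exact test). A region 2.37 kb from the start (chr19:34292858-34293196) was lost, in 5 of 7 untreated and no activated library (adjusted p = 0.0443, exact test, held in 2 of 15 fits without 1 library). It had a peak in the authors' merged list of activated wild type, at −log10 q of 2.28.

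Casp8 and Cflar are neighbours on chromosome 1, with 36.3 kb between their bounds, so a region between them was assigned to the nearer. A Casp8 region centred at -5.02 kb from the start (chr1:58797086-58797885) fell by 0.86 ± 0.11 and 0.94 ± 0.12 on the relative log2 scale (limma adjusted p = 5.19e-09 and 3.92e-09). Casp8 gained chr1:58781243-58781785, in all activated and no untreated library, and lost chr1:58806783-58807123, in 6 of 7 untreated and no activated library (adjusted p = 0.0121, exact test). Of the 5 Cflar regions in all libraries, 4 fell in wild type and 3 in knockout, and none rose. Cflar lost chr1:58720828-58721589 (in 7 untreated and 2 activated libraries, adjusted p = 0.0308) and chr1:58716475-58716776 (5 and 0, adjusted p = 0.0443, exact test). The first had a peak in the authors' merged activated lists, at −log10 q of 13.9 in wild type and 7.65 in knockout.

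Trp53inp1 lost 3 of its 10 regions by peak presence. Next to its start, chr4:11157310-11157931 had peaks in all 7 untreated libraries at 1.99 to 6.11 per M and in 1 activated library, at 1.36 (adjusted p = 0.0121, exact test). The others were chr4:11143118-11143517, found in all untreated and no activated library, and chr4:11161349-11161759, in 6 untreated and no activated library (adjusted p = 0.0121, exact test). The lost region next to the start had a peak in the authors' merged activated lists, at −log10 q of 17.7 in wild type and 16.9 in knockout. The 2 regions in all libraries both fell in both genotypes, by 0.55 ± 0.11 and 0.61 ± 0.11 for the one centred at -9.02 kb (limma adjusted p = 1.42e-05 and 1.03e-05).

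Over the 48 regions present in all libraries, 19 rose and 17 fell relative to the median in wild type and 13 rose and 17 fell in knockout, beside the shares of all regions given with Bcl2 (29.8% and 33.3%, and 29.3% and 32.9%). On the scale per M the split was 1 higher and 28 lower in wild type (5.14% and 65.2% of all regions) and 4 higher and 21 lower in knockout (7.57% and 39.7%). Of the 48, 12 rose in both genotypes, 16 fell in both, none was called in opposite directions and 10 were called in neither. The changes in wild type and knockout had a Pearson r of 0.969 and a Spearman rho of 0.964 across the 48 regions, and 0.949 and 0.928 across all 21176. Regions share libraries and depth and are not independent replicates. The other 87 regions lacked a peak somewhere and were compared by presence only, so the 48 are not the whole set.

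**Figure D5:**
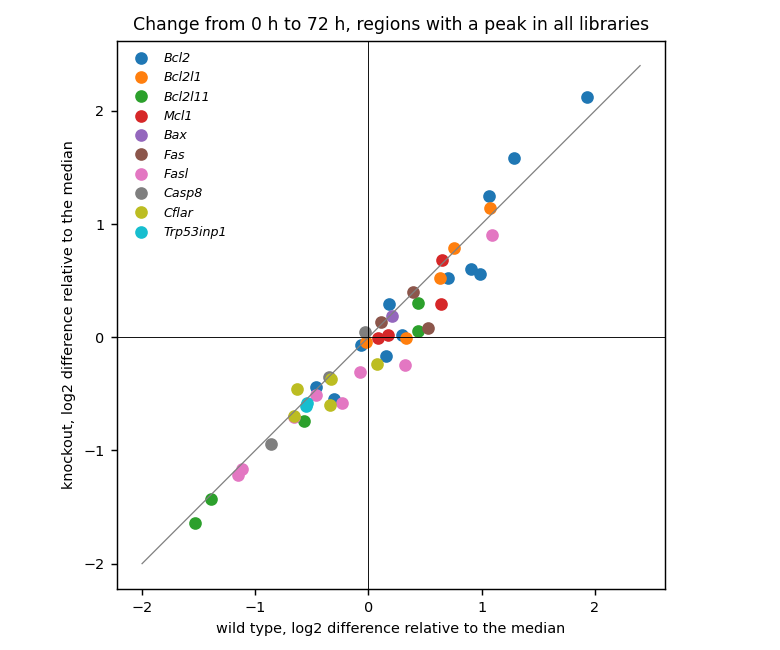
Change from 0 h to 72 h relative to the median region (log2) in wild type (x axis) and knockout (y axis), with 1 point for each of the 48 regions with a peak in all libraries, coloured by gene, and a grey line where both are equal. Points follow the line from the Bcl2l11 region near -1.5 to the Bcl2 region near 2, and none is called in opposite directions.

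Between IRF5-/- and IRF5+/+ cells, 0 of the 135 regions differed by peak presence at an adjusted p under 0.05, by the exact test with time as stratum (0% of all tested regions were called in either direction, and the unstratified Fisher exact test called 0 too). At an unadjusted p under 0.05, 5 regions were seen less often and 0 more often in knockout, of Fasl, Cflar, Bcl2l1, Casp8 and Trp53inp1. Over all tested regions 1.36% were seen less often and 0.037% more often at that threshold. Knockout libraries had 29994 to 45589 peaks untreated and 55519 to 61478 activated, and wild-type ones 39807 to 47790 and 59243 to 69086. The lowest was a Fasl region 59.6 kb from the start (chr1:161728604-161729158, exact p = 0.00612), with a peak in 2 untreated and 4 activated wild-type libraries and no knockout library. With 83743 regions tested, the adjustment can call none unless 684 or more pass together, since no p can be under 0.000408 in this exact test, so a difference limited to few regions was not detectable. Between genotypes at 0 h, 0 regions were found in every knockout and no wild-type library and 1 the reverse (0.00478% and 0.39% of all tested regions), and at 72 h 0 and 3 (0.0299% and 0.462%). These single regions were chosen after their values were seen.

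In pileup per M limma called 0 of the 48 regions between knockout and wild type at 0 h, 0 at 72 h and 0 for the interaction of genotype and activation, where all tested regions also gave 0%. At an unadjusted p under 0.05 there were 14, 7 and 0 regions, where all tested regions gave 36.8%, 5.03% and 2.14%. The count at 72 h depended on the fit. It was 12 in a fit restricted to the groups compared, over regions with a peak in all their libraries, which are more than the 48. It was 6 of the 48 without untreated knockout library 3. Relative to the median, 1 region was called at 72 h (0.264% of all regions were lower and 0.94% higher), 0 at 0 h (0.0331% of all regions were higher and 0% lower) and 0 for the interaction (0% higher and 0.00472% lower). It was centred at -6.32 kb from the start of Fasl (chr1:161794304-161795329), at 2.68, 2.83, 3.14 and 2.37 per M in activated wild type and 1.78, 1.41, 1.49 and 1.82 in activated knockout. The groups did not overlap at 72 h and the relative difference was -0.52 ± 0.14 (adjusted p = 0.0447, limma). The call held in 4 of the 15 fits that left out 1 library, and the interaction at that region did not pass (-0.57 ± 0.20, adjusted p = 0.401). On the scale per M, limma called 42 regions lower in knockout at 0 h without untreated knockout library 4, which leaves libraries 1 and 3. The share of all regions called in that fit is not reported here. With all libraries, the median difference at 0 h was -0.52 (log2) over all 21176 regions and -0.53 over the 48. Relative to the median, 0 regions were called at 0 h in each of the 15 fits without 1 library.

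The wider apoptosis pathway was described by 48 genes in 7 lists, 46 with a region, for 187 regions in all. Of these 30 (16%) were gained and 2 (1.07%) lost with activation, against 18.4% and 4.65% of all tested regions, so the share gained was near that of all regions. BH3-only genes gained 6 of 33 regions, 3 of them at Pmaip1 (Noxa) and 1 at Bid. Pro-survival genes other than the members had 0 changes in 9 regions, and Bok, a BAX-like protein gene, gained both of its 2. Death receptor and ligand genes gained 4 and lost 1 of 43, all at Tnfsf10 (TRAIL). Caspase and apoptosome genes gained 6 and lost 1 of 34, including 1 gain at Apaf1, the scaffold of the apoptosome. Inhibitor of apoptosis genes gained 7 of 29, 5 of them at Birc6 and 1 at Xiap, and p53 pathway genes gained 5 of 36, including 1 each at Mdm2 and Mdm4, which restrain p53. The near-identical Bcl2a1 copies make their assignments uncertain. In pileup relative to the median, 16 of 72 regions of the wider lists rose and 20 fell in wild type, and 20 rose and 21 fell in knockout. Over all 21176 regions 29.8% rose and 33.3% fell in wild type and 29.3% and 32.9% in knockout.

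B cell marker regions had more peaks after activation, while the numbers of regions with a peak in the T cell, CD8 and NK cell, and myeloid marker lists overlapped between times in each genotype. Of 47 regions of B cell marker genes, 13 to 14 had a peak in untreated and 34 to 38 in activated wild-type libraries; the knockout numbers were 5 to 13 and 24 to 32. Their summed pileup per M was 13.5 to 15.9 untreated and 42.5 to 62.1 activated for wild-type cells, and 4.17 to 13.6 and 32.2 to 40.3 for knockout cells. Ms4a1, Cd79a and Cd79b had no assigned region, while Pax5, Ebf1 and Bank1 had peaks in every library. T cell marker sums were 244 to 329 per M in untreated and 120 to 166 in activated wild type, and 107 to 265 and 101 to 111 in knockout. CD8 and NK cell marker sums were 47.9 to 61.8 per M in untreated and 37.0 to 46.8 in activated wild type, and 18.8 to 55.5 and 30.7 to 40.6 in knockout. Myeloid marker sums were 24.3 to 43.5 and 22.2 to 28.1 in wild type, and 10.5 to 31.8 and 18.7 to 20.4 in knockout. The part of these marker lists in the activation results was not tested. In such bulk samples a change in the share of a cell type and a change in accessibility per cell cannot be told apart.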

How the data were processed

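The submitters' processing notes name Trim Galore 0.5.0, Bowtie2 2.2.9, HOMER 4.10.4 and the mm10 build. Per the file headers, MACS2 2.1.1.20160309 called peaks on read pairs without a control, at a q cutoff of 0.05, keeping 1 fragment per position; wild-type library 4 came from an alignment numbered 5 at both times. The deposited pileup is the fragment coverage signal at a peak's summit. It holds whole numbers, so it was scaled here per M fragments after filtering. The deposited fold enrichment is a ratio to local background, and the deposited −log10 p-value and −log10 q-value come from the same background. The score in the authors' final lists was deposited with no rule for choosing them in the sources used here.

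Peaks of 15 libraries were merged (overlap of 1 bp or more). Presence was tested with an exact conditional test (scipy 1.17.1), and log2 pileup with limma 3.58.1 in R 4.3.3, all 4 groups in 1 fit without a pseudocount, over 21176 regions found in all libraries. The same fit on values centred on each library's median gave the relative changes. Both tests were tested on simulated data. In that check the presence test could not call a small planted set, since no call is possible unless 684 regions pass together. The simulation was therefore repeated with a larger set, which it recovered. The planted regions separated the times completely, so recovery was certain once the set was above 684. Power for partial differences was not checked. Regions were named by rule: the start region, up to 3 called by presence per gene and direction, and up to 3 by largest change in pileup; other regions named were chosen after their values were seen. The members and gene lists were chosen with earlier results of these data known. Values of some single genes of the wider and marker lists are not reported here. Alternatives are given in the closing section.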

Additional observations from a re-analysis of the deposited data

How the results depend on the processing

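The direction of the activation result, more member regions lost than gained by presence, held under every alternative that made a call. With equal numbers of peaks per library, 21 of 135 member regions were lost and 6 gained. Of the 44850 regions then tested, 14.1% (6335) were lost and 14.8% (6630) gained. In the main setting 17 were lost and 7 gained, against 4.65% (3895) and 18.4% (15380) of 83743. The number of the 135 tested with equal peak numbers is not reported here. How the losses stood against all regions in that setting therefore cannot be read from these shares. With the replicate number as a block (replicate block), presence calls went to 0 gained and 0 lost, since the strata are then too small to pass the adjustment. Correlations of same-numbered deviations ran from -0.17 to 0.23, and those of differently numbered ones from -0.25 to 0.25. These cannot decide if the numbers pair the libraries, and nothing was read from the block. In pileup per M the replicate block gave 26 changed regions in wild type (29 without it) and 23 in knockout (25 without it), and changed no genotype or interaction count. Leaving out 1 library gave 10 to 15 lost and 5 to 7 gained regions, 24 to 35 changed in wild type, 17 to 39 in knockout, 0 to 42 between genotypes at 0 h and 0 to 6 at 72 h. The 39 arose without untreated knockout library 3, which also gave the 6 at 72 h, and the 42 without untreated knockout library 4. Shares over all regions in these fits are not reported here. An alternative chosen after seeing the data, all regions of the other 14 libraries, gave 43 changed in knockout and 5 between genotypes at 72 h. Restricting the fit to the groups compared gave 16 in knockout and 12 between genotypes at 72 h. For the interaction that alternative is the same fit, so it has no value of its own. The fit on 14 libraries and the fits restricted to the groups compared took in more member regions than the 48. Their counts are therefore not out of 48 and cannot be set directly beside those of the main fit. Median-centring and quantile normalization each gave 1 at 72 h. At −log10 q of at least 5, shares of member regions with a peak were 67.0% untreated and 60.6% activated in wild type and 59.5% and 53.3% in knockout, beside 47.1%, 62.3%, 39.4% and 53.5% of all tested regions. With equal numbers of peaks they were 55.0% and 43.3% in untreated and activated wild type, and 56.8% and 40.6% in knockout. All tested regions then gave 35.4% and 35.4%, and 34.4% and 35.2%. Counts relative to the median stayed at 15 to 19 higher and 15 to 17 lower in wild type, and 12 to 13 and 14 to 18 in knockout, without each library in turn.

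The start regions that did not pass relative to the median changed sign with the scaling, and the cause was not tested. Per M all 4 were negative. Median-centred, Mcl1 was 0.17 and 0.0225, Bax 0.21 and 0.19 and Fas 0.11 and 0.13 in wild type and knockout. With quantile normalization Bcl2l1 was 0.17 and 0.14, Mcl1 0.26 and 0.11, Fas 0.24 and 0.22 and Bax -0.00875 and -0.000466. Leaving out untreated knockout library 4 gave Bax 0.0160 per M in knockout, the top of a range from -0.75 without untreated library 3. Relative to the median, Bcl2l1 was 0.0110 in wild type without untreated library 1 and 0.0112 without activated library 3. Mcl1 was -0.00940 and -0.00245 in knockout without untreated library 4 and activated library 4, -0.0863 in the other 14 libraries, and -0.0110 in wild type within the groups compared. Bax was -0.00335 in knockout in the other 14 libraries, and Fas -0.00851 in wild type there and -0.0738 within the groups compared. Depth of 20.5 M to 29.0 M fragments limits the calling of weak peaks.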
